A study of Mus musculus with 30 samples.

Results

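Whole cerebral cortex of 3-month-old mice labelled Brapflox/floxEmx1Cre was compared with that of 3-month-old mice labelled Brapflox/wt Cre-, by sequencing of polyadenylated RNA. The libraries were chosen by genotype and age in the labels: 4 controls and 6 Emx1-Cre libraries, 10 of the 30 libraries in the series. The controls carry 1 floxed and 1 wild-type allele and no Cre, and are described as littermates that resemble wild type, so the groups differ in Cre and also in the number of floxed alleles. All 6 Emx1-Cre mice carry the label "strong" for phenotype, a word the labels do not define, and no mouse was treated. Emx1-Cre recombines in dorsal forebrain progenitors, which give rise to cortical excitatory neurons and astrocytes, and not in the lineages of microglia or vessel cells. The deposited table lists 54418 genes, and enough reads to be tested were found for 16726.

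BRAP is a RING-type E3 ubiquitin ligase of the cytoplasm. It holds back signalling from RAS to the kinases RAF, MEK and ERK by keeping a scaffold of that cascade inactive, and releases it when RAS binds. In the cortex the cascade carries signals from growth factor receptors and synaptic activity to immediate early transcription factors. Cytokines that share the receptor subunit gp130 act through JAK and STAT3 and switch astrocytes to a reactive state, interferons act through STAT and IRF factors, and TNF and interleukin 1 act through NF-kB.

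Libraries held 21430680 to 26966518 counts, and values below are CPM, read counts scaled to library size. The first principal component (47% of variance) put the controls at -66.41 to -58.15, Emx1-Cre replicates 1 to 5 at 46.29 to 69.42 and replicate 6 at -22.87. The second (15%) had replicates 1 and 2 at 54.85 and 36.26 and replicates 3 and 5 at -53.31 and -49.61. By sex-linked transcripts each group held equal numbers of females and males, 2 of each among the controls and 3 of each among the Emx1-Cre libraries. This counts Emx1-Cre replicate 1 as male, although its reading was mixed, as described below. The cortical transcription factor genes Neurod6 and Tbr1 were read in every library, with Neurod6 at 56 to 74.9 CPM in controls and 17.4 to 92.4 in the labelled libraries. Of 15 cortex genes 1 passed the test, as higher, with none higher without any 1 control or without Emx1-Cre replicate 1, 3, 4 or 5 and 2 without replicate 2 or 6. In bulk tissue, fewer cells of a type cannot be told apart from less RNA per cell, in any result below.

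Brap itself (GRCm38, chromosome 5) was read at 66.2, 59.1, 58.7 and 62.7 CPM in control replicates 1 to 4 and at 92.5, 76.5, 110, 114, 112 and 68.8 in Emx1-Cre replicates 1 to 6. All 6 libraries labelled Emx1-Cre were above all 4 controls, with a log2 change of 0.63 ± 0.15, adjusted p = 0.0146 (edgeR's quasi-likelihood test, used for every adjusted p here, each given after the log2 change and its SE). Whole-gene counts cannot show whether the floxed exons are gone, so the deletion was not checked by them. Because the level goes against a loss of the transcript, directions below are those of the libraries labelled Emx1-Cre, and replicate numbers refer to them unless controls are named.

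Of the 16726 genes, 3909 passed an adjusted p under 0.05, which is 23.4%: 2054 (12.3%) with more RNA in the libraries labelled Emx1-Cre and 1855 (11.1%) with less. Changes of at least 2-fold made up 5.9% and 4.16% of genes, and all 6 labelled libraries lay above all 4 controls for 8.54% and below them for 8.68%. The median log2 change over all genes was 0.007. Replicate 6 carried a smaller version of these differences. It lay outside the control range, in the called direction, for 67.5% of the higher and 74.4% of the lower genes, against 96.9 to 98.4% and 95.9 to 98.4% for replicates 1 to 5. The calls come from a fit that included replicate 6, so genes in which it differed from the others were less likely to be counted. The median difference of replicate 6 from the control mean was 0.32 for the higher genes, against 0.89 to 1.04 in the others. Without replicate 6 the counts rose to 3067 higher and 2989 lower. With any 1 of the other 9 libraries left out they fell, to 967 to 1831 higher and 820 to 1540 lower, the lowest values being those without 1 control. Called members of many lists are therefore given below with how many stayed called whichever library was left out, and others with how far the count moved. The share that stayed called over all genes was 38.3% of the higher and 35.4% of the lower calls. A gene near 0 in the controls was tested only if the labelled libraries had enough reads, so it could be called higher but not lower. Among list members below this holds for such genes as Osm, Bcl3, Saa3, Tnf, Ccl2, Ccl3, Ccl5, Cd300lf and Chil3.

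**Figure D1:**
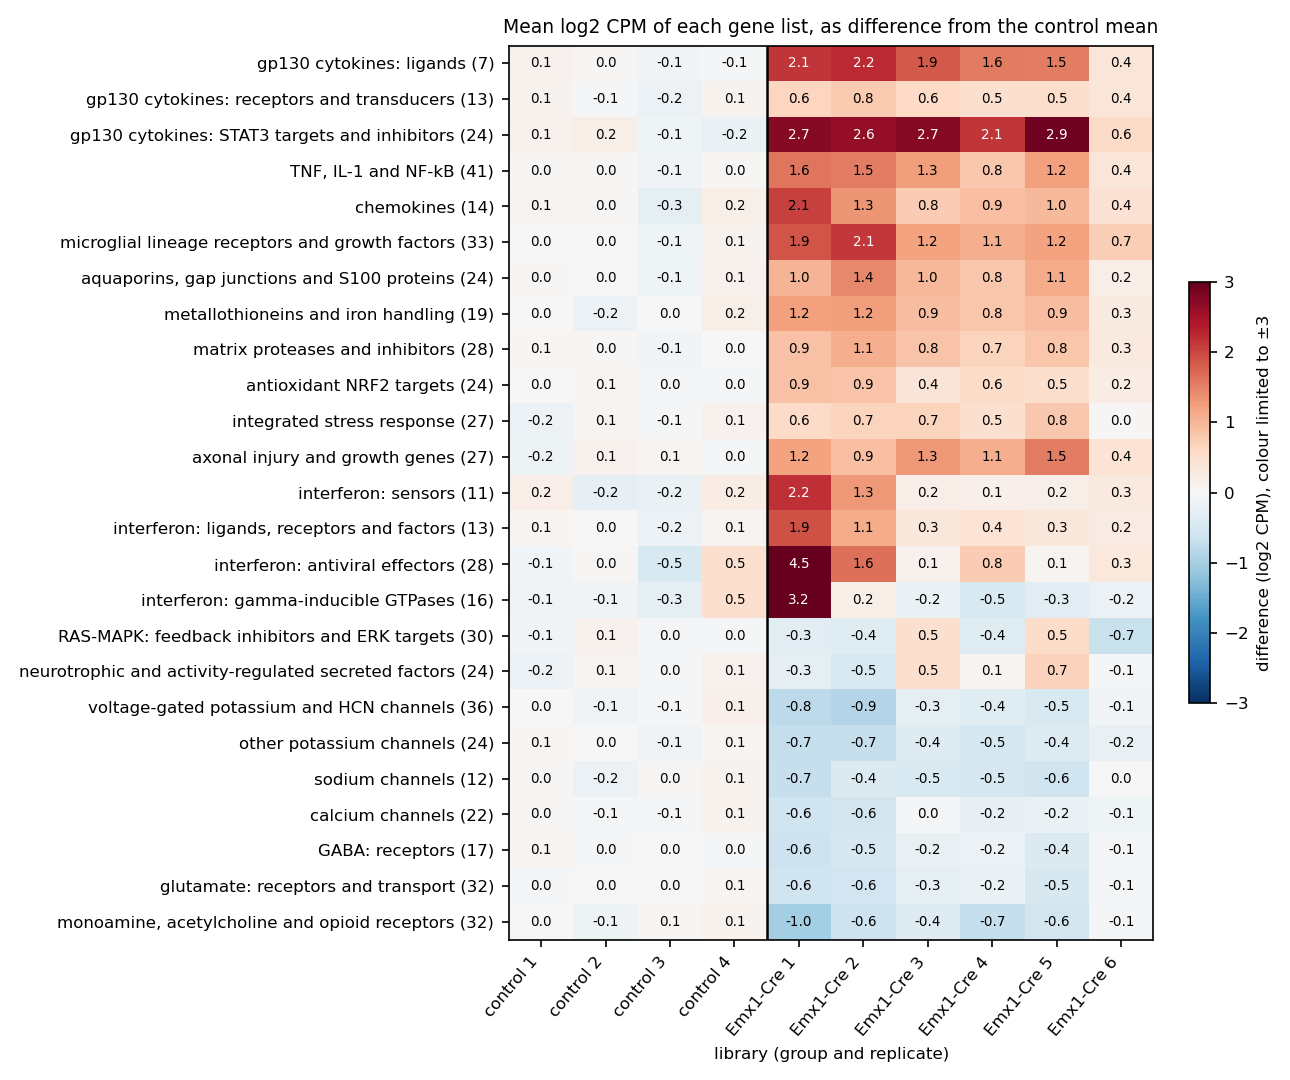
Mean log2 CPM of 25 gene lists (numbers of tested genes in brackets) in each of the 10 libraries, shown as the difference from the mean of the 4 controls, with red above and blue below. The STAT3 target list stands 2.1 to 2.9 above the controls in replicates 1 to 5 and 0.6 above in replicate 6, while the antiviral list stands 4.5 above in replicate 1.

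Genes of the RAS-MAPK pathway were taken in order, from ligands to targets. Of 18 ligand genes 3 were higher and 3 lower, with a median log2 change of -0.01. Fgf2, a ligand of FGF receptors, stood at 10.8, 9.99, 8.05 and 10.1 CPM in the controls and 20.7, 29.7, 33.6, 18.8, 31.4 and 11.9 in the libraries labelled Emx1-Cre, a rise of 1.32 ± 0.27, adjusted p = 0.00753. Fgf2 was above every control in all 6, and least so in replicate 6. Tgfa, a ligand of the EGF receptor, was at 37.6 to 45 in controls and 14.9 to 33.5 in the labelled libraries, which did not overlap (-0.78 ± 0.19, adjusted p = 0.0151). Fgf13, an intracellular FGF relative that binds sodium channels, fell (145 to 158 in controls and 53.3 to 98.1 in the labelled libraries, -0.99 ± 0.16, adjusted p = 0.00285). Without replicate 6 the lower ligands numbered 6, and without control replicate 1, 3 or 4 the higher ligands numbered 1, so for this class only Fgf2, Tgfa and Fgf13 stayed called throughout.

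Among 18 receptor tyrosine kinases 3 were higher and 4 lower. Met, the receptor of hepatocyte growth factor, rose (5.77 to 7.19 in controls and 9.36 to 26.3 in the labelled libraries, 1.55 ± 0.28, adjusted p = 0.00466). Fgfr1 rose (65.7 to 74.3 in controls and 103 to 149 in the labelled libraries, 0.79 ± 0.12, adjusted p = 0.00227) while Fgfr2, the FGF receptor gene of astrocytes and oligodendrocytes, fell (52.4 to 64.5 in controls and 20.6 to 41 in the labelled libraries, -0.93 ± 0.17, adjusted p = 0.00449). Kit, the receptor of stem cell factor, fell (41.8 to 61.6 in controls and 16.7 to 42.4 in the labelled libraries, -1.08 ± 0.25, adjusted p = 0.0121), with replicate 6 inside the control range. Egfr read 28.5, 19.3, 15.8 and 16.7 and 25.8, 22.4, 17.6, 26.8, 12 and 25.6 CPM, overlapped and did not pass (0.11 ± 0.24, adjusted p = 0.748). The lower receptors numbered 2 without control replicate 1 or 4.

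Few genes of the cascade itself passed the test. Of the 31 adaptor, RAS, RAF, MEK, ERK and scaffold genes 3 were called higher and 1 lower, 12.9% against 23.4% of all genes, and Rras alone stayed called whichever library was left out. Rras, a RAS relative prominent in vessel cells, was at 8.6, 8.85, 6.97 and 6.8 CPM in controls and 24.5, 26, 18.6, 17.2, 21.7 and 7.92 in the labelled libraries, with replicate 6 inside the control range (1.31 ± 0.28, adjusted p = 0.00957). The scaffold Ksr1, whose activity BRAP restrains, was not called, at 50.9 to 60.6 against 53.3 to 80.6 (0.21 ± 0.12, adjusted p = 0.231), nor was the kinase Mapk3 (adjusted p = 0.998). Mapk3 read 248, 214, 81, 156, 90.8 and 213 CPM in the labelled libraries, low in replicates 3 and 5 and high in 1, 2 and 6. The count of higher cascade genes fell to 1 without any 1 control or without replicate 3. The single lower call, of Rps6ka2, which shares sequence with other loci, went without any 1 control or without replicate 1, 2, 4 or 5, and lower calls rose to 2 without replicate 3 and to 5 without replicate 6.

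Of 30 feedback inhibitors and targets of ERK, 3 were higher and 5 lower, with a median of -0.11. That is 26.7% called, near the 23.4% of all genes, and 2 in each direction stayed called whichever library was left out. Myc rose (2.54 to 3.79 in controls and 4.25 to 12.8 in the labelled libraries, 1.54 ± 0.33, adjusted p = 0.00984) and Epha2, an ephrin receptor gene (0.711 to 0.951 in controls and 1.01 to 7.99 in the labelled libraries, 2.53 ± 0.55, adjusted p = 0.0103), each with all 6 labelled libraries above all controls. Fosl1, an AP-1 subunit, had 2 counts over all 4 controls and 403 over the 6 labelled libraries, a ratio of 137 (95% exact counting interval 37.7 to 1140). Fosl1 is uncertain because 57.2% of its exonic bases lie opposite another gene's exons, and reads of the 2 strands may not be separated. Egr1, an immediate early transcription factor of active neurons, read 357, 426, 389 and 320 CPM in controls and 95.4, 65.1, 186, 58.9, 184 and 62.7 in the labelled libraries (-1.78 ± 0.35, adjusted p = 0.00713). Egr2 read 17.1, 23.9, 21.7 and 6.51 and 1.02, 0.868, 2.58, 0.506, 2.76 and 1.76 (-3.44 ± 0.47, adjusted p = 0.00157). Both genes were below every control in all 6, and the fall in Egr1 was smallest in replicates 3 and 5. Dusp6, the ERK phosphatase often read as a measure of ERK output, was not called (-0.17 ± 0.31, adjusted p = 0.71), and its values of 37.5, 45.2, 86, 52.5, 84.6 and 23.9 ran above the control range of 53 to 71.4 in replicates 3 and 5 and below it in the other 4. Lower calls numbered 2 to 3 without any 1 control or without replicate 1 or 2, and higher calls 5 without replicate 6.

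Genes of the protein machinery around BRAP were also read. Of 26 BRAP partners and enzymes of histone H2A ubiquitination none was higher and 5 were lower, and 2 to 3 were lower without any 1 control or without replicate 4. Pcgf6, a Polycomb RING partner, fell (12.3 to 21.5 in controls and 8.02 to 10.4 in the labelled libraries, -0.76 ± 0.16, adjusted p = 0.00997). Bap1, the H2A deubiquitinase, read 139 to 150 and 137 to 183 and was not called (0.19 ± 0.10, adjusted p = 0.194). Of 22 genes for ubiquitin and its conjugation 4 were higher, none lower, and all 4 stayed called whichever library was left out. Uchl1, the abundant neuronal ubiquitin hydrolase, read 348, 474, 502 and 425 CPM in controls and 779, 644, 655, 818, 833 and 726 in the labelled libraries, which all lay above the controls, replicate 6 included (0.76 ± 0.13, adjusted p = 0.00405). The polyubiquitin gene Ubb (0.75 ± 0.14, adjusted p = 0.00598) and the conjugating enzyme Ube2l3 (0.46 ± 0.09, adjusted p = 0.00789) were higher too, but 32.9 to 50.3% of their 31-base words also occur in other genes, so their counts are uncertain. Of 22 histone genes 4 were higher, and 2 without any 1 control, among them H1f2, a linker histone, at 7.7 to 16.1 against 27.1 to 46.1 CPM (1.8 ± 0.23, adjusted p = 0.00109).

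Genes of the gp130 cytokine axis were higher among ligands and targets, and in part among receptors, in the libraries labelled Emx1-Cre. Of 7 ligand genes tested 4 were higher, of 13 receptor and transducer genes 4, and of 24 STAT3 targets and inhibitors 16, with none lower in any of the 3 lists. The shares were 57.1%, 30.8% and 66.7%, against 12.3% of all genes called higher. Their median log2 changes were 2.25, 0.21 and 2.29. Some members, among them Osm, Bcl3 and Saa3, passed the filter only through the labelled libraries and so could not be called lower. Leaving out 1 library changed these to 3 to 6, 4 to 5 and 13 to 18 higher calls, and leaving out replicate 6 also gave 2 receptor genes called lower.

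Among the ligands, Clcf1 encodes a secreted cytokine that signals through the CNTF receptor. Clcf1 read 1.31, 0.869, 1.3 and 0.761 CPM in controls and 16, 34.2, 7.18, 8.43, 8.61 and 0.897 in the labelled libraries (3.55 ± 0.80, adjusted p = 0.0131), with replicate 6 inside the control range and the other 5 above it. Osm, oncostatin M, was at 0.0373 to 0.164 and 0.234 to 3.5 CPM (3.43 ± 0.87, adjusted p = 0.018), highest in replicate 1, and its call was lost without control replicate 2 (adjusted p = 0.0544) or 3 (0.055). Lif was not called (1.47 ± 0.53, adjusted p = 0.0611; 0.0346 without replicate 4 and 0.0216 without replicate 6). Cntf overlaps another gene over 78.9% of its exonic bases and is uncertain (2.51 ± 0.47, adjusted p = 0.00524). Il6 was below the test's filter, with 20 counts in replicate 1 and at most 4 counts in every other library.

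Of the receptors, Osmr, the oncostatin M receptor, rose most, from 5.28, 3.87, 2.98 and 3.9 CPM to 57.2, 52.7, 45.9, 82.1, 34.8 and 17.9 (3.59 ± 0.39, adjusted p = 0.000772). Il6ra rose (4.98 to 7.86 in controls and 9.48 to 20.6 in the labelled libraries, 1.32 ± 0.23, adjusted p = 0.00437). The shared subunit Il6st read 70.3 to 93 and 64.1 to 84.7, overlapped and was not called (-0.09 ± 0.12, adjusted p = 0.595). Stat3 read 49.2, 53.3, 41.2 and 48.2 in controls and 125, 112, 158, 102, 157 and 59.9 in the labelled libraries, the smallest rise being that of replicate 6 (1.31 ± 0.23, adjusted p = 0.00466).

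Of the targets, Socs3, the feedback inhibitor of this pathway, read 3.56, 3.16, 2.91 and 2.23 CPM in controls and 61.7, 21.8, 22.1, 15.2, 27 and 2.69 in the labelled libraries (3.07 ± 0.67, adjusted p = 0.0118). Replicate 6 lay inside the control range for Socs3, and replicate 1 was highest. Bcl3, an NF-kB cofactor, read 0.0745 to 0.277 and 0.897 to 7.44 (4.67 ± 0.67, adjusted p = 0.00172), and Timp1, a metalloprotease inhibitor, 0.0745 to 0.246 and 0.819 to 38.7 (7.04 ± 1.02, adjusted p = 0.00269), with all 6 above all controls. The acute phase gene Saa3 had 2 counts over the 4 controls and 1372 over the labelled libraries, of which replicate 6 held 1. Of the 16 higher targets replicate 6 was above the control range for 11, replicate 4 for 15 and each other labelled library for 16.

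**Figure D2:**
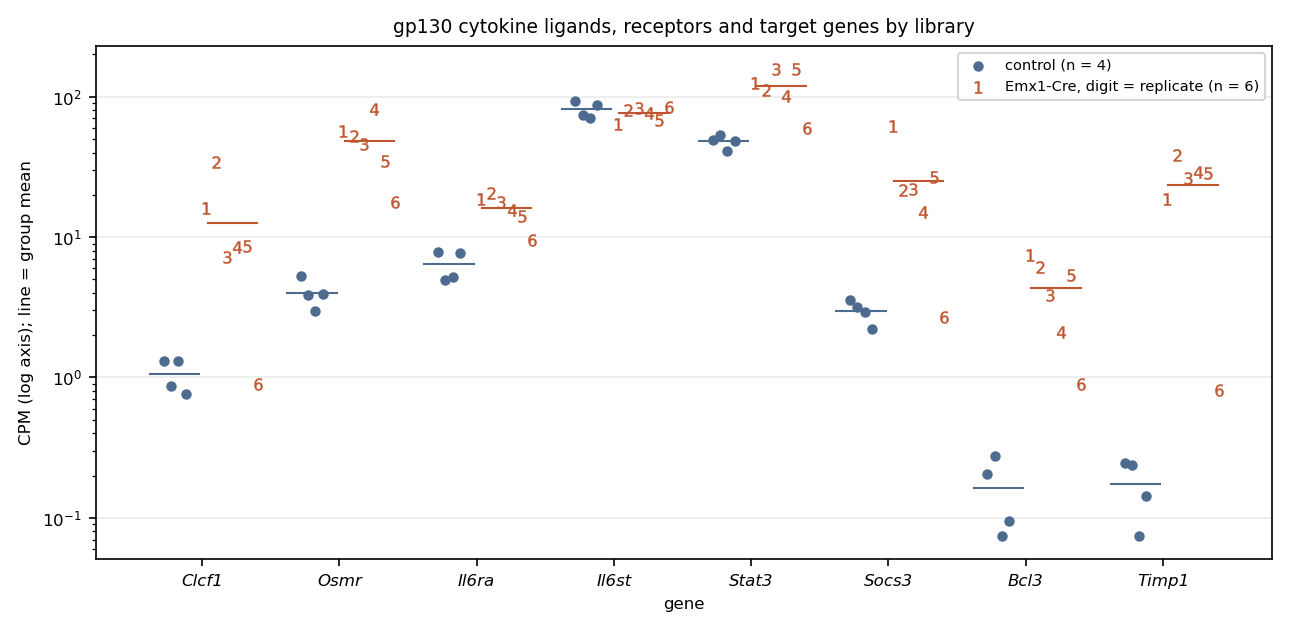
CPM on a log axis of 8 genes of the gp130 cytokine axis, from ligands (left) to targets (right), with dots for the 4 controls, digits for Emx1-Cre replicates and lines at group means. Il6st overlaps between groups at 70.3 to 93 and 64.1 to 84.7 CPM, and replicate 6 is the lowest labelled library for every gene but Il6st.

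TNF, interleukin 1 and NF-kB genes were higher as a list, 21 of 41 tested against 12.3% of all genes, with 1 lower and a median log2 change of 0.99. Of the 21, 12 stayed called whichever library was left out. Tnf itself was scarce: 1 count over the controls and 151 over the labelled libraries, a ratio of 103 (95% exact counting interval 18.2 to 4090), at 0.778, 0.62, 1.52, 1.98, 1.2 and 0.273 CPM. Its receptor Tnfrsf1a read 9.91, 9.88, 8.35 and 9.84 CPM in controls and 59.3, 65.5, 49.9, 27.1, 58.6 and 14.5 in the labelled libraries, all 6 above all controls (2.27 ± 0.38, adjusted p = 0.00361). Of the Toll-like receptors, Tlr2, which senses bacterial lipoproteins, rose (0.998 to 1.3 in controls and 5.38 to 30.2 in the labelled libraries, 3.89 ± 0.49, adjusted p = 0.00109) and Tlr4, the endotoxin receptor (1.38 to 1.62 in controls and 3.47 to 8.64 in the labelled libraries, 1.81 ± 0.29, adjusted p = 0.00283). Il1rap, the accessory chain of the interleukin 1 receptor, was the 1 lower gene, at 36.2 to 46.1 against 21.2 to 28.6 with no overlap (-0.72 ± 0.12, adjusted p = 0.00329). Il33, an astrocyte and oligodendrocyte alarmin, was not called (-0.43 ± 0.29, adjusted p = 0.29).

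Chemokine genes moved in both directions. Of 14 tested, 5 were higher and 3 lower, of which 3 and 2 stayed called whichever library was left out, and 10 more of the list were too low to test. Ccl2, Ccl3 and Ccl5 passed the filter only through the labelled libraries, so the test could call them higher but not lower. Cxcl16 rose (0.903 to 1.42 in controls and 2.89 to 16.5 in the labelled libraries, 2.57 ± 0.48, adjusted p = 0.00524), Ccl3 (0.0819 to 0.119 in controls and 0.799 to 4.62 in the labelled libraries, 4.4 ± 0.64, adjusted p = 0.00187) and Ccl2 (0 to 0.143 in controls and 0.156 to 25.7 in the labelled libraries, 6.13 ± 1.46, adjusted p = 0.016). Ccl2 was highest in replicate 1 and only just above the controls in replicate 6. Cxcl12, which is made by vessel and neuronal cells, fell (33.5 to 57.4 in controls and 13.2 to 33.4 in the labelled libraries, -1.3 ± 0.24, adjusted p = 0.00556). Without replicate 4 the higher chemokines numbered 3. Of 11 chemokine and complement receptor genes, C3ar1, the C3a receptor of microglia, read 1.19 to 2.9 and 5.16 to 43.8 CPM (3.12 ± 0.67, adjusted p = 0.0109) and alone stayed called throughout. The microglial fractalkine receptor Cx3cr1 read 48.6, 168, 35.9, 38.2, 35.4 and 69.1 CPM in the labelled libraries, above the controls in replicates 2 and 6, and was not called (0.35 ± 0.43, adjusted p = 0.573).

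Receptor genes of microglia were higher in 17 of 33 cases, against 12.3% of all genes, and lower in none (2 without replicate 6), with a median of 1.27. The count was 10 without control replicate 3, and 10 of the 17 stayed called whichever library was left out. Markers of activated microglia were higher in 8 of 8 cases, where 12.3% of all genes were called higher, and 6 of the 8 stayed called. Their sum was 26.2 to 34.7 CPM in controls and 117 to 922 in the labelled libraries. Markers near 0 in the controls, such as Cst7, needed the labelled libraries to pass the filter and could hardly be called lower. Of 7 markers of homeostatic microglia 1 was higher and none lower (none higher without any 1 control or replicate 1, and 1 lower without replicate 2), with a sum of 256 to 306 CPM in controls and 231 to 856 in the labelled libraries, and their mean log2 CPM was 1.01 above the control mean in replicate 2, 0.73 to 0.87 below it in replicates 3 to 5 and 0.03 to 0.2 above it in 1 and 6. Of these markers only Cst7, of the activated list, was at 0 in any library, in control replicates 1 and 4, and the part of microglial number in the receptor results was not tested. Cd300lf, an inhibitory lipid receptor, had 2 counts over the controls and 1677 over the labelled libraries, at 34.9, 9.43, 11.5, 4.22, 13.3 and 0.624 CPM. Msr1, a scavenger receptor, read 0.19 to 0.559 and 1.29 to 26.1 (5.27 ± 0.78, adjusted p = 0.00245), and Csf2rb, the shared chain of the GM-CSF and interleukin 3 receptors, 0.982 to 1.66 and 3.82 to 21.2 (3.29 ± 0.46, adjusted p = 0.00164). Replicate 6 was lowest of the 6 for all 3 genes and still above every control. Pros1, a bridging ligand of the TAM receptors that clear dying cells, rose (11.2 to 16.9 in controls and 23.5 to 79.7 in the labelled libraries, 2.11 ± 0.31, adjusted p = 0.00198). Csf1, a growth factor for microglia, rose (0.71 ± 0.17, adjusted p = 0.0157; 0.055 without control replicate 3), while Il34, the neuronal ligand of the same receptor, was not called (-0.49 ± 0.17, adjusted p = 0.0526; 0.0109 without replicate 6).

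All 4 classes of interferon-response genes described below had their highest mean in replicate 1. Replicate 2 came next in 3 of the 4, with class means 1.12 to 1.65 above the control mean on the log2 scale, where replicate 1 stood 1.92 to 4.45 above it. Of the 15 genes with the widest gap between the highest and the next labelled library, with no control above that next library, every 1 was highest in replicate 1. Promoters of 4 of them are shown first, because interferon-stimulated genes are known for an element made of repeated GAAA, bound by ISGF3 and IRF factors. The sequences are the 250 bases before the start site in RefSeq (GRCm38.p6), 5′ to 3′ on the gene's strand, with each match to GAAANNGAAA on either strand in capitals. They lie at chr12:26456453-26456702 (minus strand) for Rsad2, chr4:156200819-156201068 (minus strand) for Isg15, chr5:92348890-92349139 (minus strand) for Cxcl10 and chr19:34640639-34640888 (plus strand) for Ifit1.
Rsad2: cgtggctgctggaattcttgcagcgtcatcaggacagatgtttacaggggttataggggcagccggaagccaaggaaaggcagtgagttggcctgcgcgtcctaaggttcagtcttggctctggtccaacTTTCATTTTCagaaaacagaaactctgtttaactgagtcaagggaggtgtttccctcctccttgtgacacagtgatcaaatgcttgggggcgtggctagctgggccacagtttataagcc
Isg15: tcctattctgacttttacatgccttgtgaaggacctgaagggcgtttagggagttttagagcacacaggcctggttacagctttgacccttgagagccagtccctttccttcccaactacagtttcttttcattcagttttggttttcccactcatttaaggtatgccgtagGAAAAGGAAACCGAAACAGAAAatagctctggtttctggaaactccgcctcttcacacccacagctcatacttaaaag
Cxcl10: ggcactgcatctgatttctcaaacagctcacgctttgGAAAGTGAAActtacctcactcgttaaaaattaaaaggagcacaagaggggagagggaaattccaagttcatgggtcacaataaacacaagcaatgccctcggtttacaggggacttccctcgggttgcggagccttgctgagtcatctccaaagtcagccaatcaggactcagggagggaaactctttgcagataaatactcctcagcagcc
Ifit1: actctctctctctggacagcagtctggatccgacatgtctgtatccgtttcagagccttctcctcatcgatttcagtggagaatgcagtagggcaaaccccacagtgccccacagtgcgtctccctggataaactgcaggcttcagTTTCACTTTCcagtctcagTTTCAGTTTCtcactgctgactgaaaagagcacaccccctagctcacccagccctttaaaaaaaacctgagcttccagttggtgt

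The motif was found in 6 of the 10 genes of the 15 that had an entry in the promoter table (Isg15, Cxcl10, Rsad2, Ifit1, Ifit3 and Ifit3b), which is 60%, and in 978 of all 32851 promoters, which is 2.98%. Isg15 held 3 overlapping matches that run together, Ifit1 held 2 and Rsad2 and Cxcl10 1 each. Ifi44, Ifi47, Irf7 and Oasl1 had no match in this window. A match is a description of the letters and was not tested as a binding site.

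Rsad2, which encodes the antiviral enzyme viperin, read 1.43, 1.62, 0.559 and 1.66 CPM in controls and 237, 4.75, 2.99, 6.07, 2.54 and 1.6 in the libraries labelled Emx1-Cre. Isg15, a ubiquitin-like protein, read 0.368, 0.474, 0.485 and 0.761 and 47.8, 3.6, 1.11, 2.57, 0.98 and 0.78. Ifit1, a sensor of viral RNA, read 1.64, 1.86, 0.895 and 2.57 and 139, 8.1, 2.44, 5.1, 1.89 and 2.38. In these genes replicate 1 stood apart by more than 10-fold from every other library, replicates 2 and 4 came next, and replicate 6 lay at or near the controls. None was called, with adjusted p = 0.0768 for Rsad2, 0.0602 for Isg15 and 0.0888 for Ifit1. Rsad2 passed without replicate 1 (adjusted p = 0.0446), as did Isg15 without replicate 1 (0.0366) or 6 (0.0402). With all 30 libraries of the series sharing 1 estimate of spread, the adjusted p was 0.00309 for Rsad2, 0.00742 for Isg15 and 0.00796 for Ifit1. Cxcl10, the chemokine for T cells, read 0.0409, 0.119, 0.261 and 0.238 and 279, 5.25, 7.64, 5.78, 8.53 and 0.507. It was called (adjusted p = 0.0333), and the call was lost without any 1 control (adjusted p = 0.0774 to 0.0863).

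By class, of 28 antiviral effectors 5 were called higher (among them Isg20, Oasl1, Oasl2 and Eif2ak2), and none of the 5 stayed called whichever library was left out. The count was 0 without control replicate 2 or 4, 1 without control replicate 1 or 3, 2 without replicate 2 and 3 without replicate 3 or 4. It ranged from 1 to 21 over the other settings tried. The mean log2 CPM of the class was 5.26 in replicate 1 and 2.46 in replicate 2. It was 0.89 to 1.57 in replicates 3 to 6, and 0.36 to 1.3 over the controls. The 16 gamma-inducible GTPase and related genes had a mean of 3.94 in replicate 1, while the other 5 read 0.25 to 0.88 and the controls 0.42 to 1.21. Of these 16 none was called higher and 1 lower, with 3 and 3 without replicate 1, 2 higher without replicate 6 and none lower without control replicate 3. None of 11 sensor genes of nucleic acids was called, although 3 were called higher and 1 lower without replicate 6. The mean of the sensors was 3.66 in replicate 1, 2.78 in replicate 2 and 1.22 to 1.77 in the other 8 libraries. Of 13 ligand, receptor and factor genes 4 were higher (1 to 2 without any 1 control), and Ifngr1, a chain of the interferon gamma receptor, was the 1 that stayed called, at 15.2 to 16.3 against 21.5 to 48.4 CPM (0.94 ± 0.20, adjusted p = 0.00952). The transcription factor Irf7 read 0.708 to 2.23 in controls and 103, 9.34, 2.12, 3.75, 1.6 and 1.21 in the labelled libraries and was not called (4.11 ± 1.56, adjusted p = 0.0814). Among the ligands, Ifnb1 had 17 counts in replicate 1 and 0 in each of the other 9 libraries, where a count of 0 allows up to 3. Ifng had at most 1 count in any library. Ifit3, Ifit3b and Gbp6 share 55.3 to 74.3% of their words with other genes and are uncertain. Gbp6 passed only without replicate 1 (adjusted p = 0.0478).

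**Figure D3:**
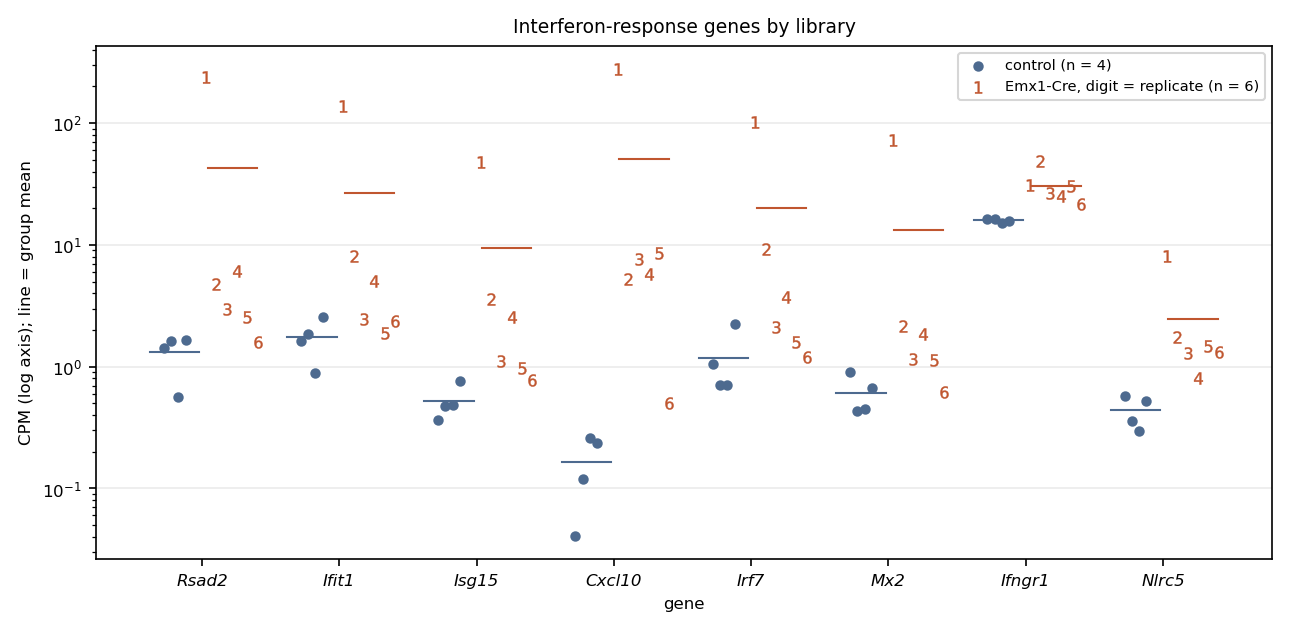
CPM on a log axis of 8 interferon-response genes, with dots for controls, digits for Emx1-Cre replicates and lines at group means. Replicate 1 is the highest library for every gene except Ifngr1, for which replicate 2 is highest at 48.4 CPM.

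Secreted factors that neuronal activity induces formed a second pattern by library, high in replicates 3 and 5. Bdnf, a neurotrophin, read 27.1, 25.1, 18.2 and 38.9 CPM in controls and 17.2, 16.7, 126, 21.7, 116 and 31.8 in the libraries labelled Emx1-Cre. Nptx2, a pentraxin that clusters AMPA receptors, read 39, 38.3, 25.8 and 68.5 and 39.9, 34.1, 394, 51.6, 479 and 58.8. Inhba, the activin A subunit, read 13.7, 7.9, 8.46 and 23.5 and 6.03, 17.7, 109, 5.23, 97.1 and 11.6. For all 3 genes replicates 3 and 5 were above every other library and the remaining 4 lay inside or below the control range, and none was called (adjusted p = 0.281, 0.126 and 0.239). Vgf, a neuropeptide precursor, was highest in the same libraries at 1294 and 1923 CPM against 171 to 270 in controls (1.94 ± 0.60, adjusted p = 0.0423). Its call was lost without any 1 control or without replicate 3, 4 or 5 (adjusted p = 0.0597 to 0.106).

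Nptx1, a relative of Nptx2, rose (336 to 404 in controls and 408 to 763 in the labelled libraries, 0.8 ± 0.17, adjusted p = 0.00872) and stayed called whichever library was left out. Of the 24 secreted factors 5 were higher and 3 lower. The higher count fell to 2 without any 1 control or without replicate 4 and to 3 without replicate 3 or 5, and the lower count to 0 to 1 without any 1 control. Arc, the immediate early gene of dendrites, went the other way, at 326, 540, 453 and 153 CPM in controls and 18.5, 26.4, 42.9, 11.8, 50.5 and 28.9 in the labelled libraries (-3.62 ± 0.43, adjusted p = 0.00106). Arc was below every control in all 6, also in replicates 3 and 5, which were the highest of the 6. The ERK target list had its highest means, 4.76 and 4.83 log2 CPM, in replicates 3 and 5, while the controls read 4.21 to 4.43 and the remaining labelled libraries 3.63 to 3.98.

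Counting over 14856 genes, replicates 3 and 5 together stood at least 2-fold above the other 4 labelled libraries for 124 genes and below them for 80. Replicates 1 and 2 did so for 107 and 24, and every other pair for at most 33 above and 45 below. Of single libraries, replicate 1 stood above the other 5 for 154 genes, replicate 6 for 127 and replicate 2 for 97, and replicates 3, 4 and 5 for 3 to 6. Replicate 6 stood below the others for 310 genes and the rest for 14 to 71. By sex-linked transcripts replicates 3, 4 and 5 were called female and replicates 1, 2 and 6 male, but the sex of replicate 1 is uncertain. A library was called female where Xist exceeded the sum of the Y-linked genes read. Xist in replicates 2 and 6 was at least 3.1 log2 units below every other labelled library, replicate 1 included. The labels give no litter, dissection day or collection time, and their part in these sets was not tested.

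**Figure D4:**
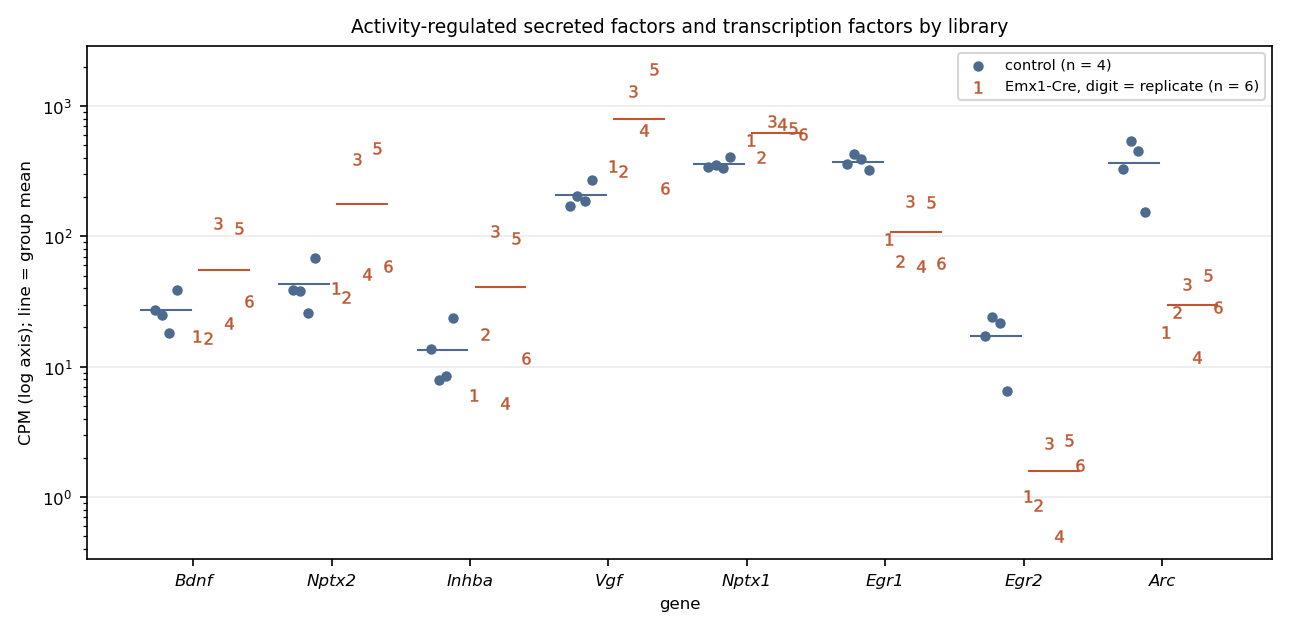
CPM on a log axis of 8 activity-regulated genes, with dots for controls, digits for Emx1-Cre replicates and lines at group means. Digits 3 and 5 lie above the rest for Bdnf, Nptx2, Inhba and Vgf, while all 6 digits lie below the controls for Egr1, Egr2 and Arc.

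Some markers of cell types were lower, as were many of the channel and receptor genes that follow. Against the control mean, upper-layer markers averaged -0.92, -0.88, -1.2, -1.02, -1.16 and -0.72 in replicates 1 to 6. The voltage-gated potassium list averaged -0.79, -0.88, -0.27, -0.36, -0.45 and -0.08. Both lists were nearest the controls in replicate 6, and the potassium list was lower in 1 and 2 than in 3 and 5. The other channel and receptor lists, except sodium channels, were also lower in 1 and 2 than in 3 and 5. Of 8 markers of upper-layer excitatory neurons 4 were lower, 3 of which stayed called, and none higher. Their sum was 596 to 791 CPM in controls and 371 to 567 in the labelled libraries, and their mean log2 CPM was 0.72 to 1.2 below the control mean in the 6 labelled libraries. Otof, an otoferlin gene of upper-layer neurons, fell (22.4 to 29 in controls and 2.15 to 10.1 in the labelled libraries, -2.21 ± 0.31, adjusted p = 0.00168). Of 9 myelin markers 5 were lower, 4 of which stayed called, and none higher, with a sum of 5395 to 5790 CPM in controls and 1672 to 5399 in the labelled libraries and a mean 0.55 to 1.86 below the controls, lowest in replicates 3 and 5. Ugt8a, which makes myelin galactolipids, fell (43.9 to 59.5 in controls and 6.43 to 20.9 in the labelled libraries, -2.16 ± 0.33, adjusted p = 0.00271). Of 8 deep-layer markers 1 was lower, a call that did not stay, and of 9 interneuron markers 2 were higher, 1 of which stayed called (4 without replicate 6), and none lower (1 without replicate 1 or 6). The sums were 317 to 495 CPM in controls and 359 to 432 in the labelled libraries for the deep-layer markers, and 1001 to 1183 and 1103 to 2251 for the interneuron markers. No marker of these 4 lists was at 0 in any library, and their part in the channel and receptor results was not tested.

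Among genes that set neuronal excitability, nearly all that passed the test were lower in the libraries labelled Emx1-Cre. Of 36 voltage-gated potassium and HCN channel genes 13 were lower and 1 higher, against 11.1% and 12.3% of all genes, with a median log2 change of -0.41. The lower count was 7 without control replicate 1 or 4, and 7 genes stayed called whichever library was left out. The higher gene, Hcn4, lost its call without control replicate 1, 2 or 4 or replicate 3 or 5 (adjusted p = 0.0581 to 0.098). Kcnh7, an ERG channel, read 130, 92.1, 88.9 and 124 CPM in controls and 38, 25.3, 40.6, 47.3, 31.6 and 63.2 in the labelled libraries (-1.41 ± 0.22, adjusted p = 0.00281). Kcnq3, a subunit of the M current, read 223, 158, 156 and 221 and 82.7, 74.7, 105, 86.6, 73.1 and 132 (-1.04 ± 0.18, adjusted p = 0.00404). Kcnip2, an auxiliary subunit of A-type channels, read 152 to 173 and 56 to 96.8 (-1.07 ± 0.15, adjusted p = 0.00164). In these 3 genes every labelled library lay below every control, and replicate 6 was the nearest to them.

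Of 24 inward rectifier, two-pore and calcium- or sodium-activated potassium channel genes 7 were lower and none higher, and 4 stayed called. Kcnj9, a subunit of the GIRK channels opened by inhibitory receptors, fell (132 to 170 in controls and 29.4 to 102 in the labelled libraries, -1.55 ± 0.29, adjusted p = 0.00609), and Kcnk4, the TRAAK leak channel (12.8 to 14.8 in controls and 2.56 to 5.74 in the labelled libraries, -1.61 ± 0.21, adjusted p = 0.00114). Kcnt2, a sodium-activated channel, fell (23.7 to 31.3 in controls and 7.12 to 14.7 in the labelled libraries, -1.42 ± 0.20, adjusted p = 0.00174). The count was 4 without control replicate 1, 3 or 4 or replicate 1, 3 or 4. Of 12 sodium channel genes 4 were lower, and none stayed called throughout. Their count was 1 to 2 without any 1 control or without replicate 2 or 5, and 7 without replicate 6. Scn1a, the sodium channel gene of fast-spiking interneurons, read 126 to 165 and 67.6 to 119 (-0.68 ± 0.17, adjusted p = 0.0161; 0.0563 without control replicate 1). Of 22 calcium channel genes 5 were lower, 3 without control replicate 1 and 2 without control replicate 4. Cacnb3 (-0.75 ± 0.16, adjusted p = 0.0102) and Cacng3 (-0.93 ± 0.21, adjusted p = 0.0128), both auxiliary subunits, stayed called.

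**Figure D5:**
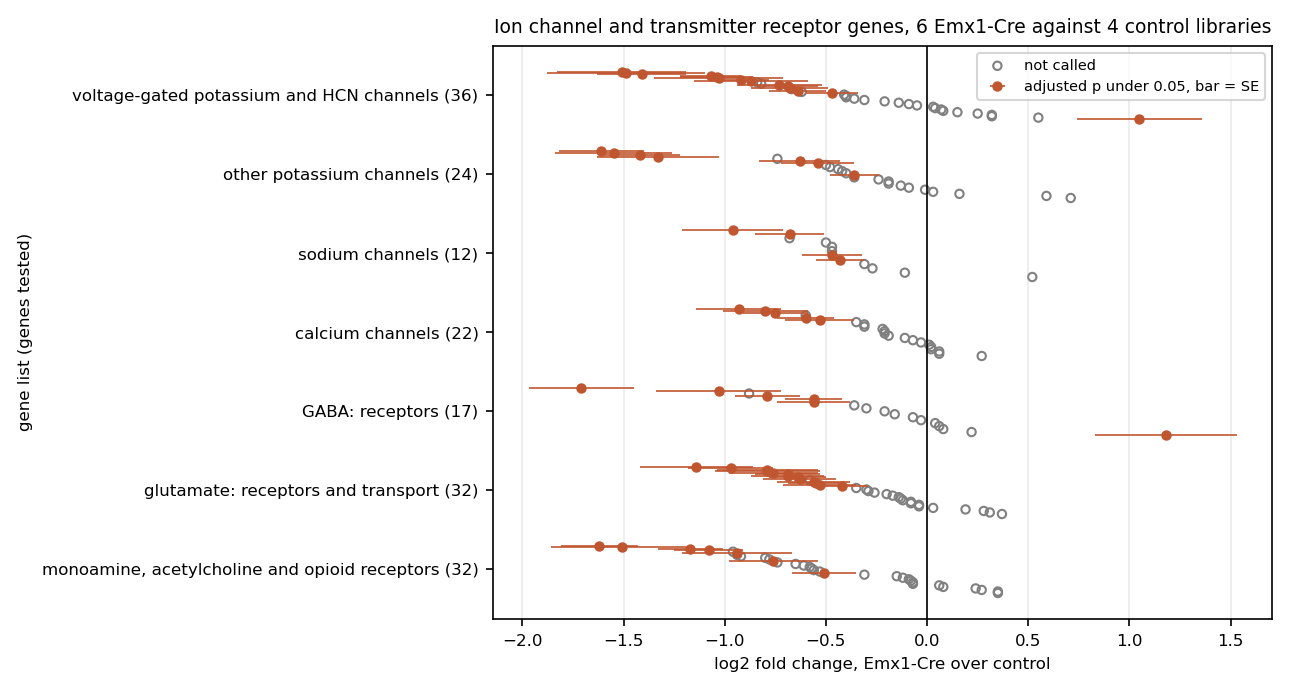
Log2 fold change of every tested gene in 7 lists of ion channels and transmitter receptors, Emx1-Cre over control, with filled points for adjusted p under 0.05 (bar: SE) and open points for the rest. Of the filled points 54 lie below 0 and 2 above it, Hcn4 and Gabre, neither of which stayed called in every fit with 1 library left out.

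Of the transmitter receptor genes that passed, all but 1 were lower. Of 17 GABA receptor genes 5 were lower and 1, Gabre, higher, a call lost without any 1 control or replicate 2, 3, 4 or 5 (adjusted p = 0.0526 to 0.085). Gabrd, the subunit of extrasynaptic receptors, read 53.9, 60.1, 57.7 and 68.5 CPM in controls and 21.3, 22, 9.67, 13.8, 13 and 30.3 in the labelled libraries, with no overlap (-1.71 ± 0.26, adjusted p = 0.00267). Gabra3 fell (122 to 138 in controls and 59.8 to 105 in the labelled libraries, -0.79 ± 0.16, adjusted p = 0.00716). The lower count was 3 without control replicate 1, 2 or 3 or replicate 5. Of the chloride transporters, Slc12a2, which loads chloride, fell (76 to 90.2 in controls and 45.7 to 62.3 in the labelled libraries, -0.66 ± 0.11, adjusted p = 0.00346), and Slc12a5, which extrudes it (550 to 614 in controls and 317 to 525 in the labelled libraries, -0.53 ± 0.14, adjusted p = 0.0207; 0.0543 without control replicate 2 and 0.0597 without control replicate 4). Of the 2 enzymes that make GABA, Gad1 was not called (0.25 ± 0.17, adjusted p = 0.303), and Gad2 rose (191 to 225 in controls and 195 to 549 in the labelled libraries, 0.8 ± 0.25, adjusted p = 0.0383), a call lost without any 1 control or without replicate 3 or 5 (adjusted p = 0.0603 to 0.095).

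Of 32 glutamate receptor and transport genes 13 were lower and none higher (1 without replicate 2), but the lower count was 3 to 7 without any 1 control and 6 to 8 without replicate 1, 2, 3 or 5. The kainate receptor Grik2 (55 to 72.3 against 33.1 to 51.7 CPM; -0.64 ± 0.14, adjusted p = 0.0105) and the presynaptic receptor Grm2 (37 to 61.5 against 15 to 32; -0.97 ± 0.21, adjusted p = 0.01) were the 2 that stayed called. The vesicular transporter Slc17a7, which marks most cortical excitatory neurons, was not called (0.31 ± 0.21, adjusted p = 0.288) and was lowest in replicate 2 at 780 CPM, without which it passed as higher (adjusted p = 0.0321). In replicate 6, 6 of the 13 lower glutamate genes were below the control range, against 13 in each of the other 5 libraries.

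Of 32 receptors for monoamines, acetylcholine and opioids 7 were lower and none higher, with a median of -0.56, the lowest of the channel and receptor lists. The nicotinic subunit Chrna4 read 29.1, 42.4, 44.8 and 31 CPM in controls and 9.58, 9.67, 12, 14.8, 10.3 and 15.6 in the labelled libraries (-1.62 ± 0.19, adjusted p = 0.000855). The beta-1 adrenergic receptor Adrb1 read 19.3 to 23.7 and 7.44 to 12.6 (-1.17 ± 0.16, adjusted p = 0.00147), and the muscarinic receptors Chrm3 51 to 57 and 17 to 35.4 (-1.08 ± 0.17, adjusted p = 0.00281) and Chrm4 17.1 to 23 and 3.45 to 14.6 (-1.51 ± 0.35, adjusted p = 0.0127). All 4 genes were below every control in all 6 labelled libraries and stayed called whichever library was left out. The count was 4 without any 1 control or without replicate 1. The serotonin receptor Htr2a was not called (-0.94 ± 0.38, adjusted p = 0.0909). The stress peptide receptor Crhr1 fell (17.1 to 22.6 in controls and 2.66 to 6.48 in the labelled libraries, -2.2 ± 0.22, adjusted p = 0.000432) and the kinase Camkk2, which calcium activates (244 to 312 in controls and 42.2 to 111 in the labelled libraries, -2.19 ± 0.24, adjusted p = 0.000748).

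Genes of astrocyte function did not move as a block in the libraries labelled Emx1-Cre. Of 34 homeostatic genes 4 were higher and 5 lower, 26.5% called and near the 23.4% of all genes, with a median of -0.03. Their mean log2 CPM differed from the control mean by 0.49 and 0.35 in replicates 1 and 2 and by -0.54 and -0.62 in 3 and 5. It differed by 0.11 in replicate 4, by 0.09 in replicate 6 and by -0.19 to 0.23 in single controls. Aldh1l1, a folate enzyme used as an astrocyte marker, rose (66.7 to 84.5 in controls and 105 to 284 in the labelled libraries, 1.34 ± 0.30, adjusted p = 0.0115), and Cbs, which makes cystathionine (22.7 to 31.7 in controls and 48 to 98 in the labelled libraries, 1.33 ± 0.21, adjusted p = 0.0029). Mfge8, a bridging protein for the uptake of dying cells, fell in all 6, from 255, 279, 244 and 218 to 84, 85.4, 72.5, 63.7, 88.7 and 126 (-1.52 ± 0.17, adjusted p = 0.000748). The glutamate transporter Slc1a2 (-0.29 ± 0.24, adjusted p = 0.396), the potassium channel Kcnj10 (0.23 ± 0.26, adjusted p = 0.526) and the water channel Aqp4 (0.65 ± 0.25, adjusted p = 0.0771; 0.0205 without replicate 6) were not called. Higher genes numbered 7 to 8 without replicate 3, 5 or 6, and lower genes 1 to 3 without any 1 control or without replicate 4. Of the metallothioneins, Mt1, a zinc-binding protein, read 116, 108, 105 and 120 CPM in controls and 1379, 1392, 1032, 949, 1379 and 317 (3.26 ± 0.37, adjusted p = 0.000856), and Mt3, its brain form, 140 to 154 and 214 to 374 (0.97 ± 0.16, adjusted p = 0.00315), with all 6 above all controls. Of the 19 metallothionein and iron genes 10 were higher and none lower, and 7 stayed called, among them Cp, a ferroxidase (1.16 ± 0.22, adjusted p = 0.00534), and Slc11a1, a metal transporter of phagosomes (1.8 ± 0.32, adjusted p = 0.00404). Mt2 lies opposite other exons over 73.5% of its length and is uncertain.

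Genes of signalling between cells were read by pathway. Of 38 TGF-beta and BMP genes 12 were higher and 3 lower, and 6 higher genes stayed called. The ligand Tgfb1 rose (4.66 to 6.56 in controls and 8.08 to 35.4 in the labelled libraries, 2.02 ± 0.34, adjusted p = 0.00379), and the target Id1 (7.49 to 10.4 in controls and 9.56 to 41.1 in the labelled libraries, 1.63 ± 0.32, adjusted p = 0.0067). The higher count was 6 to 7 without control replicate 1, 3 or 4, and the lower count 0 to 1 without any 1 control or without replicate 4 or 5. In the Wnt list of 39 genes 4 were higher and 6 lower, 25.6% called and so near the share of all genes, and 1 higher and 4 lower stayed called. Wnt7a, a ligand for vessels and oligodendrocyte precursors, fell (11.4 to 16.5 in controls and 1.31 to 6.53 in the labelled libraries, -1.84 ± 0.39, adjusted p = 0.00904), the general Wnt target Axin2 (19.7 to 22.1 in controls and 7.99 to 15.2 in the labelled libraries, -0.92 ± 0.17, adjusted p = 0.00569) and the secreted inhibitor Frzb (20.7 to 24.5 in controls and 3.7 to 12.2 in the labelled libraries, -1.47 ± 0.26, adjusted p = 0.00436), while the ligand Wnt10b rose (0.761 to 1.11 in controls and 1.01 to 10.4 in the labelled libraries, 2.56 ± 0.54, adjusted p = 0.00872). Higher Wnt genes numbered 1 to 2 without any 1 control or without replicate 2, 3, 4 or 5. Of 24 Notch and Hedgehog genes 2 were higher, neither of which stayed called, and 5 were lower, 3 of which did, led by Hhip, a Hedgehog-binding inhibitor and target, at 7.01 to 12.6 against 1.51 to 5.85 (-1.74 ± 0.36, adjusted p = 0.00786). The Notch targets Hes5 (-2.3 ± 0.48, adjusted p = 0.00872) and Nrarp (-1.28 ± 0.27, adjusted p = 0.00977) were lower but share 25.7% and 78.2% of their words with other genes. The lower count was 3 without control replicate 1 or 2 and 8 without replicate 6.

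Of the stress programmes, targets of the integrated stress response and of NRF2 were higher in part and chaperones of the endoplasmic reticulum were not. Of 27 integrated stress response genes 11 were higher, 6 of which stayed called, and 1 lower (none without control replicate 1, 2 or 4 or replicate 4, and 2 without replicate 2 or 5). Nupr1, a stress-induced chromatin protein, read 7.82, 6.6, 4.77 and 6.89 CPM in controls and 74.2, 72.6, 61, 66, 66.3 and 9.13 in the labelled libraries, far above the controls in 5 and just above in replicate 6 (3.16 ± 0.50, adjusted p = 0.00322). Atf5 rose (11.8 to 20.1 in controls and 25 to 65.9 in the labelled libraries, 1.44 ± 0.25, adjusted p = 0.00373) and the amino acid transporter chain Slc3a2 (98.5 to 104 in controls and 124 to 264 in the labelled libraries, 1.07 ± 0.18, adjusted p = 0.00388), whereas Atf4 (-0.43 ± 0.16, adjusted p = 0.069; 0.0378 without replicate 5), Ddit3 (0.09 ± 0.22, adjusted p = 0.801) and Asns (0.04 ± 0.18, adjusted p = 0.893) were not called. The higher count was 6 to 7 without control replicate 1, 3 or 4. Of 24 NRF2 targets 10 were higher, 5 of which stayed called, 5 to 6 without control replicate 1, 2 or 4, and 1 lower, none without any 1 control or replicate 2, 3, 4 or 5. Hmox1, the haem oxygenase, read 3.17 to 4.33 and 5.19 to 68.9 CPM (3.12 ± 0.60, adjusted p = 0.00685) and Srxn1, a sulfiredoxin, 81.9 to 98.5 and 132 to 416 (1.61 ± 0.29, adjusted p = 0.00487), while Nqo1 was not called (0.79 ± 0.34, adjusted p = 0.108; 0.0489 without replicate 3). Of 25 chaperone and unfolded protein response genes 1 was higher, 5 without replicate 6 and none without any 1 control or replicate 1, 3 or 4. Hspa5, the main chaperone there, read 207 to 348 and 222 to 331 (-0.09 ± 0.16, adjusted p = 0.718).

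Genes known from injured neurons were higher in 12 of 27 cases, 8 of which stayed called, and lower in 1, a call lost without control replicate 2, 3 or 4 or replicate 1, 2, 3 or 4. Atf3, an injury-induced transcription factor, read 0.573, 1.7, 1.04 and 0.761 CPM in controls and 26.1, 6.86, 9.07, 3.12, 9.8 and 3.63 in the labelled libraries (3.25 ± 0.64, adjusted p = 0.00713). Gal, the peptide galanin, read 0.238 to 0.614 and 2.58, 5.21, 24.4, 11.6, 31.3 and 2.3, highest in replicates 3 and 5 (5.19 ± 0.95, adjusted p = 0.00576). Ecel1, a neuronal endopeptidase, read 12 to 15.4 and 30 to 85.7 (2.04 ± 0.27, adjusted p = 0.00135). All 6 labelled libraries were above all controls for these 3 genes. Gap43, a growth cone protein, was not called (0.03 ± 0.15, adjusted p = 0.881). Of genes linked to neurodegeneration, Mapt, which encodes tau, fell (493 to 574 in controls and 255 to 470 in the labelled libraries, -0.76 ± 0.16, adjusted p = 0.00989), with replicate 6 below the control range too. The progranulin gene Grn read 53.7, 66.9, 59.6 and 65.6 and 593, 608, 146, 267, 151 and 92.2, highest in replicates 1 and 2 (2.33 ± 0.55, adjusted p = 0.0165; 0.053 without control replicate 1). App was not called (-0.25 ± 0.12, adjusted p = 0.138).

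Matrix and vessel genes moved in part. Of 28 proteases and inhibitors of the matrix 12 were higher, 9 of which stayed called, and 2 lower (1 without control replicate 1, 2 or 4). Plat, tissue plasminogen activator, read 28.4, 28.3, 25.6 and 31 CPM in controls and 154, 102, 110, 88.9, 117 and 51.3 in the labelled libraries (1.87 ± 0.24, adjusted p = 0.00116), and the inhibitor Serpinf1 7.42 to 9.7 and 16.8 to 33.7 (1.5 ± 0.22, adjusted p = 0.00189), without overlap. The inhibitor Timp2 was also above all controls in all 6 (0.91 ± 0.12, adjusted p = 0.00135). Of the perineuronal net and proteoglycan genes Vcan (1.22 ± 0.23, adjusted p = 0.0061) and Bgn (1.0 ± 0.20, adjusted p = 0.00721) were higher and Ptn (-0.71 ± 0.12, adjusted p = 0.00345), Cspg5 (-0.72 ± 0.14, adjusted p = 0.00685) and the hyaluronan synthase Has3 (-2.06 ± 0.39, adjusted p = 0.00573) lower. Of 32 endothelial barrier genes 6 were higher and 4 lower, and 3 in each direction stayed called. The glucose transporter Slc2a1 rose (80.3 to 145 in controls and 145 to 222 in the labelled libraries, 0.77 ± 0.17, adjusted p = 0.0101), the lipid transporter Mfsd2a (23.2 to 35.4 in controls and 57.8 to 113 in the labelled libraries, 1.31 ± 0.21, adjusted p = 0.00271) and Angpt2, which loosens vessels (0.672 to 1.35 in controls and 2.28 to 18.7 in the labelled libraries, 3.38 ± 0.69, adjusted p = 0.00818). Itm2a fell (40.9 to 50.3 in controls and 8.61 to 21 in the labelled libraries, -1.57 ± 0.20, adjusted p = 0.00101) and the thyroid hormone transporter Slco1c1 (66.8 to 92.1 in controls and 44.5 to 55.8 in the labelled libraries, -0.67 ± 0.12, adjusted p = 0.00454). Higher barrier genes numbered 3 without control replicate 2 and 10 without replicate 6. The pericyte gene Rgs5 (-0.22 ± 0.14, adjusted p = 0.253) and the smooth muscle gene Acta2 (0.09 ± 0.36, adjusted p = 0.878) were not called. The 5 red blood cell genes summed to 218 to 527 CPM in controls and 26 to 366 in the labelled libraries. Their mean log2 CPM was 1.5 to 2.81 in replicates 1, 2 and 4 and 4.82 to 5.05 in 3, 5 and 6, where the controls read 4.61 to 6.05. None was called (1 lower without replicate 6), and the part of blood content in the vessel results was not tested.

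Calcium-binding and lipid genes were among the broader changes. Of 24 aquaporin, gap junction, S100 and annexin genes 12 were higher, 9 of which stayed called, and 3 lower (1 without control replicate 2). Anxa2, a membrane-binding annexin, read 12.3, 10.5, 8.05 and 14.1 CPM in controls and 76.5, 144, 88, 48.9, 89.2 and 27.7 in the labelled libraries (2.81 ± 0.41, adjusted p = 0.00239), and S100a6, a calcium-binding protein, 7.9 to 9.72 and 131, 238, 42.8, 95.7, 39.1 and 16.5 (3.44 ± 0.71, adjusted p = 0.0107), both with all 6 above all controls. Of 32 lipid genes 6 were higher, 4 of which stayed called, and 6 lower, none of which did (0 to 3 without any 1 control or without replicate 4). Plin4, a lipid droplet coat protein, read 18.3, 7.58, 7.98 and 16.4 CPM and 62.9, 81.1, 107, 48.1, 98.4 and 87.6, with replicate 6 among the highest (2.69 ± 0.32, adjusted p = 0.000921). Plin2, another droplet protein, read 4.4 to 6.27 and 11.3 to 69.3 (2.7 ± 0.51, adjusted p = 0.0067) and Apod, a lipid carrier, 101 to 155 and 997, 924, 320, 634, 310 and 192, highest in replicates 1 and 2 (2.17 ± 0.46, adjusted p = 0.0102). Of 21 circadian clock genes 5 were lower, 23.8% and near the share of all genes, 2 of which stayed called (2 to 3 without control replicate 1, 2 or 4) and none higher (1 without replicate 2 or 6). Per3, a clock repressor, read 66.7, 48.8, 48.5 and 38.2 CPM and 28.9, 22.9, 11.9, 22.2, 10.9 and 21.1, lowest in replicates 3 and 5 (-1.36 ± 0.26, adjusted p = 0.00613), and the times of collection are not in the labels.

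Markers of other cells that a cortical dissection could hold differed by list. The summed CPM of the monocyte and neutrophil list and of the hippocampal list were higher in every labelled library than in any control. Those of the T and NK cell list and of the thalamic and brainstem list overlapped between the groups. Of 25 T and NK cell genes 19 were too low to test, with at most 17 counts in any library, and none of the 6 tested, which summed to 12.8 to 22 CPM in controls and 7.73 to 17.7 in the labelled libraries, was called, though 1 was called higher without replicate 1 and 1 lower without replicate 6. Of 16 monocyte and neutrophil genes 10 were too low, with at most 19 counts. All 6 tested were higher, 3 without control replicate 2 or 3, and their sum was 63.5 to 119 CPM in controls and 125 to 278 in the labelled libraries. The 3 that stayed called were Chil3, which shares 41.5% of its words with other genes and is uncertain, and Vcan and Hp, which other brain cells make. Ccr2, the monocyte receptor, had 35 counts over the controls and 12 over the labelled libraries. Of 11 border macrophage genes 1 was higher, a call that did not stay whichever library was left out, and none lower. Their median log2 change was 0.58, and their sum was 30.2 to 47.3 CPM in controls and 47.2 to 200 in the labelled libraries. Their mean log2 CPM was 1.57 above the control mean in replicate 2, 0.44 to 0.57 above it in 1 and 6 and 0.17 to 0.31 below it in 3 to 5. Within that list Mrc1 was not called (-0.49 ± 0.37, adjusted p = 0.334). The fibroblast collagen Col1a1 was not called either (-0.37 ± 0.31, adjusted p = 0.397). The choroid plexus gene Ttr varied from 12 to 1143 CPM within controls and 17.5 to 785 within the labelled libraries and was not called (-0.6 ± 1.15, adjusted p = 0.724). Of 12 thalamic and brainstem genes 3 were higher (5 without replicate 3), among them Prkcd (1.23 ± 0.22, adjusted p = 0.00449) and Th (1.99 ± 0.42, adjusted p = 0.00957), and their sum was 116 to 144 CPM in controls and 122 to 150 in the labelled libraries. Of 12 striatal genes 1 was lower, 3 without control replicate 2, 2 without replicate 2 or 6 and none without control replicate 1, 3 or 4 or replicate 1. Of 12 hippocampal genes 4 were higher and 2 lower (1 without control replicate 1, 2 or 4), with a sum of 343 to 444 CPM in controls and 532 to 670 in the labelled libraries. Wfs1, an endoplasmic reticulum protein gene strong in hippocampal CA1, read 148, 170, 184 and 147 CPM and 349, 350, 370, 218, 344 and 267 (0.96 ± 0.16, adjusted p = 0.00322), and C1ql2, of the dentate gyrus, 5.04 to 9.58 and 9.75 to 34.2 (1.52 ± 0.32, adjusted p = 0.00927), while the dentate factor Prox1 was not called (-0.25 ± 0.19, adjusted p = 0.355). How far the dissection moves with the groups was not tested.

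Several of the changes with the smallest adjusted p were also present in replicate 6. The test that ranked these genes included replicate 6, so the choice of genes favoured those in which it went with the others. Slc43a3, a purine base transporter, read 0.368, 0.474, 0.298 and 0.285 CPM in controls and 11.7, 10.4, 8.43, 19.5, 6.35 and 8.39 in the labelled libraries (4.89 ± 0.38, adjusted p = 0.000123). Fbln5, an elastic fibre protein, read 3.88 to 6.63 and 36.7, 60.1, 44.9, 68.1, 36.5 and 29.2 (3.1 ± 0.27, adjusted p = 0.000346). Agt, the angiotensinogen gene of astrocytes, read 12.7 to 20.8 and 80.8, 111, 112, 87.2, 94.3 and 51.7 (2.34 ± 0.23, adjusted p = 0.000432). Of the lower genes, Lamp5, of upper-layer and neurogliaform neurons, read 155, 157, 122 and 189 and 51.6, 57.7, 34.6, 42.1, 44.7 and 55.1 (-1.71 ± 0.16, adjusted p = 0.00035). Ccnd2, a cyclin, read 77.7 to 88.9 and 32.2, 34, 43.8, 27.6, 40 and 34.7 (-1.25 ± 0.12, adjusted p = 0.000432), and the glycan enzyme Gcnt4 10.6 to 15.8 and 4.13, 3.89, 4.33, 4.85, 4.97 and 4.64 (-1.64 ± 0.16, adjusted p = 0.000432). In all 6 genes the 2 groups did not overlap. Replicate 6 lay within the range of the other labelled libraries for Slc43a3, Lamp5, Ccnd2 and Gcnt4, and was the labelled library nearest to the controls for Fbln5 and Agt, as it was for Camkk2 and Mfge8.

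Among genes far above the controls in replicate 6, that replicate was the highest of all libraries for Prss56 and Blnk and within the range of the other labelled libraries for Itgax and C3. Prss56, a secreted protease gene, read 0.327, 0.198, 0.559 and 0.475 CPM in controls and 6.42, 2.69, 9.44, 0.422, 12.4 and 40.1 in the labelled libraries, highest in replicate 6 and inside the control range in replicate 4 (4.92 ± 1.14, adjusted p = 0.0154). Blnk, an adaptor of immune receptors, read 7.33 to 8.89 and 27.8, 20.5, 21.3, 26.4, 24.1 and 36.7 (1.74 ± 0.18, adjusted p = 0.000522), and Itgax, a microglial integrin, 0.19 to 0.745 and 3.4, 7.48, 4.88, 8.43, 5.45 and 7.61 (3.65 ± 0.41, adjusted p = 0.000778). C3, the central complement gene, was at 12.3 CPM in replicate 6 against 1.89 to 21.1 in the other 5 and 0.261 to 0.45 in controls (4.8 ± 0.71, adjusted p = 0.00221). By contrast, Nes, an intermediate filament gene of reactive astrocytes, read 5.74 CPM in replicate 6, below the control range of 7.57 to 12.8, where the other 5 read 32.6 to 92.9. The call of Nes (2.3 ± 0.61, adjusted p = 0.0239) was lost without any 1 control (adjusted p = 0.0567 to 0.0677).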

How the data were processed

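PolyA RNA of whole cerebral cortex, flash frozen, extracted with Trizol and treated with TURBO DNase per the labels' protocols, was sequenced in 4 control and 6 Emx1-Cre libraries at 3 months. The authors deposited 1 table of estimated counts per gene, made with Salmon 1.5.2 on GRCm38 per the submitters' processing notes, with annotation release and strandedness not given in the sources used here. Estimated counts were rounded to whole numbers. Genes were tested in edgeR 4.0.16 (R 4.3.3) with TMM scaling, filterByExpr by group (minimum count 10, minimum total 15), robust dispersions and the quasi-likelihood test, with Benjamini-Hochberg adjustment over 16726 genes and a threshold of 0.05. CPM are TMM-scaled, and log2 CPM use a prior count of 2. The labels number biological replicates but do not name litters, sexes or processing days, so p-values measure the spread between these mice. On simulated data over 16726 genes for this comparison, 7 of 67 genes changed 1.5-fold were recovered, 42 of 67 changed 2-fold and 60 of 66 changed 4-fold, with 7 false calls. The genes changed there were far fewer than the 3909 called in the data, which makes the adjusted p stricter in the simulation.

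Genes are named by a rule: Brap; for each list described, its key members and up to 4 called members of smallest adjusted p in each direction; and, over all genes, those of largest change, of smallest adjusted p, farthest from the controls in replicate 6, or high in 1 library. Some genes that meet this rule are not reported here. The members and lists were chosen with earlier results of these data known. A gene is called uncertain where over 20% of its 31-base words occur in other GENCODE M21 genes or over 20% of its exonic bases overlap another gene. Promoters are from the RefSeq table (GRCm38.p6). Intervals of count ratios are exact at 95% and cover counting error only. Alternatives were DESeq2 1.42.0, its size factors in edgeR, limma 3.58.1 voom with quality weights, other filters, all 30 libraries in the fit, sex read from the counts as a covariate, a replicate block, and fits with any 1 library left out. The replicate numbers did not pair the groups.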

Additional observations from a re-analysis of the deposited data

Results flagged for a closer look

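For each gene named and each group, the gap of the highest or lowest library to its neighbour was divided by the group's range of log2 CPM (Dixon's ratio), and 34 of 388 such groups of values, 8.76%, held a library far enough apart to be listed here. Chance does so in about 1 in 20 groups. The share cannot be read against that, because some genes were named for a library that stood apart: 9 of the 11 interferon-response genes below were, some genes were named for their level in replicate 6, and Kpna2, Pomc and Gt(ROSA)26Sor were chosen after their values were seen.

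Emx1-Cre replicate 1 was the high library for 11 interferon-response genes: Gbp6 (ratio 0.764), Ifi47 (0.797), Ifit1 (0.666), Ifit3 (0.647), Ifit3b (0.772), Isg15 (0.639), Isg20 (0.755), Mx2 (0.752), Nlrc5 (0.675), Oasl1 (0.710) and Rsad2 (0.738). Mx2, an antiviral GTPase, read 0.9, 0.435, 0.447 and 0.665 CPM in controls and 73, 2.15, 1.15, 1.86, 1.13 and 0.624 in the labelled libraries, and Nlrc5, an activator of MHC class I genes, 0.573, 0.356, 0.298 and 0.523 and 8.07, 1.74, 1.29, 0.801, 1.49 and 1.33.

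Emx1-Cre replicate 6 was the low library for 8 genes that were higher in the labelled group: Id1 (0.625), Mt1 (0.741), Mt2 (0.633), Nupr1 (0.906), Rras (0.653), Saa3 (0.772), Slc2a1 (0.706) and Timp1 (0.806). It was the high library for Camkk2 (0.706) and Mapt (0.668), which were lower in the group, and for Gt(ROSA)26Sor (0.728), Kpna2 (0.826) and Pomc (0.830), which were not called. Replicate 4 was lowest for Ddit3 (0.761) and highest for Mfsd2a (0.742).

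Within the controls, replicate 1 stood high for Gabre (0.860), Gal (0.853) and Tnf (1.000, where it held the 1 count of the group), replicate 3 stood high for Chil3 (1.000) and low for Csf1 (0.929), Rsad2 (0.858) and Tnfrsf1a (0.962), and replicate 4 stood high for Blnk (0.875).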

How the results depend on the processing

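Against 2054 higher and 1855 lower calls, counts were 2156 and 1804 with DESeq2's size factors in edgeR, 2837 and 2336 with DESeq2, 1776 and 1511 with no filter, 2027 and 1761 with a stricter one, and 2160 and 2071 with sex as a covariate. They moved by over 1.5 times to 3203 and 3423 with limma voom and to 3628 and 3395 with all 30 libraries in the fit. Leaving out 1 library gave 967 to 3067 higher and 820 to 2989 lower calls: without control replicate 1 they were 967 and 820, without 2 they were 1125 and 1034, without 3 1120 and 1088, without 4 1012 and 896, and without Emx1-Cre replicate 6 3067 and 2989. Dropping a control also leaves fewer samples to estimate the spread, and beyond that the cause was not tested. With the replicate number as a block the counts were 2032 and 2116. The numbers do not pair the mice, since the deviations of same-numbered samples correlated at -0.0411, 0.0607, -0.0204 and -0.052. Of the higher calls 740 (36%) and of the lower calls 613 (33%) held in every alternative run. Among the single genes followed through these fits, calls were gained for 5 with DESeq2, 9 with limma voom, 14 with all 30 libraries and 4 with the block, and lost for 7 with no filter, 4 with the block, 2 with sex as a covariate and 1 with limma voom. None of them changed direction while called. In the simulation changes of 1.5-fold were mostly missed, but far fewer genes changed there than were called in the data. With fewer changed genes the adjusted p is stricter, so the share missed in the data is not known. Genes with few counts in controls carry wide intervals.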

Other observations

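Some genes outside the naming rule, chosen after their values were seen, show the same sets of libraries. With Bdnf and Nptx2, replicates 3 and 5 were high for Wnt9b, a secreted Wnt ligand, which read 0.368, 0.277, 0.186 and 0.38 CPM in controls and 0.438, 0.496, 12.9, 0.337, 11.5 and 0.975 in the labelled libraries. Rem2, a calcium-channel regulator that neuronal activity induces, read 9.74, 8.61, 13.4 and 9.74 and 6.62, 7.81, 39.7, 4.34, 42.4 and 7.8. Pnmt, the enzyme that makes adrenaline, read 0.491, 0.277, 0.41 and 0.238 and 0.243, 0.165, 3.55, 0.126, 4.1 and 0.312. In all 3 genes the remaining 4 labelled libraries lay near the controls.

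A different set of genes put replicate 6 with some or all controls. Kpna2, an importin alpha gene, read 12, 10.2, 12.6 and 20.4 CPM in controls and 0.778, 1.28, 1.43, 0.843, 0.799 and 21.7 in the labelled libraries, so that replicate 6 alone of the 6 lay at the control level. Kpna2 shares 66% of its words with other genes and is uncertain. The edgeR test did not call Kpna2 (-1.62 ± 0.98, adjusted p = 0.244), while limma voom with quality weights gave an adjusted p of 0.000727 and edgeR with the replicate block 0.000381. Gt(ROSA)26Sor, the transcript of the Rosa26 locus, read 73.2, 9.16, 47.7 and 10.9 in controls and 9.12 to 17.6 in replicates 1 to 5 and 101 in replicate 6, high in control replicates 1 and 3 and in replicate 6. Pomc, the precursor of melanocortin peptides, read 0.655, 0.988, 8.24 and 1.85 and 1.07, 0.909, 0.691, 0.675, 0.871 and 8.82, high in control replicate 3 and in replicate 6. These values are given without a test of their own.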
